A study of Rattus norvegicus with 18 samples.

Results

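The comparison described here is that of rats taken 24 h after the end of a chronic ethanol diet against rats on the control diet, in tissue of the VTA (ventral tegmental area), where dopamine neurons of the reward pathway lie. Members were chosen by label: 6 withdrawal rats (numbered 13 to 18) and 6 control rats (1 to 6), which are 12 of the 18 libraries of the study, and every expressed gene was examined in them. All were wild-type adult male Sprague-Dawley rats fed Lieber-DeCarli liquid diet for 15 or 16 days. Control rats had the diet without ethanol, and withdrawal rats had it with 9% v/v ethanol and were then left without ethanol for 24 h. The remaining 6 rats (7 to 12) had the same ethanol diet and were taken at 0 h of withdrawal; they entered the fit and are quoted only beside withdrawal. Each library was made from the dissected VTA of a single rat, with RNA integrity numbers above 8.0. Only males and a single time after ethanol were sampled in the withdrawal group, so the values describe that sex and that time.

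Ethanol withdrawal is a state of raised excitability that follows the end of prolonged drinking, and the VTA is one of the regions in which dopamine neuron firing is known to fall during it. Brain cells make their own cholesterol, because plasma cholesterol does not pass the blood-brain barrier, and myelinating glia and astrocytes are major producers. The pathway genes are switched on together by the transcription factor SREBP2 when sterols in the endoplasmic reticulum are low, often with the CCAAT-binding factor NF-Y at the same promoters. Type I interferons act through a complex that holds IRF9 on a motif in the promoters of antiviral genes, of which Irf7 is itself a target that amplifies the response.

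The 12 libraries held 29.6 to 43.1 M fragments counted on genes. Levels are given as CPM, counts scaled to library depth, and a gene with no count could still lie at up to 0.0696 to 0.101 CPM (3 counts, counting error only). Dopamine neuron genes were present in every library, but unevenly: the dopamine transporter Slc6a3 was at 2.56 CPM in withdrawal rat 17, at 117 in rat 13 and at 576 in rat 15, against 235 to 735 in control rats. Withdrawal rat 13 held transcripts of the pineal gland: 25 of 26 pineal markers were higher there than in every control rat, with a summed level of 22245 CPM against 25.5 to 33.0 in control rats and 28.3 to 39.1 in withdrawal rats 14 to 18. Control rat 5 held Hox genes of the hindbrain at a summed 107 CPM, where the 11 other libraries lay between 0.0540 and 5.85. Control rat 3 held meningeal fibroblast markers at a summed 4618 CPM, against 518 to 659 in the other control rats and 545 to 1062 in withdrawal rats. Results are therefore given also without rat 13: log2 differences of withdrawal over control stand with their SE, followed in square brackets by the value without rat 13. All control libraries shared the first index of their dual sequencing index, withdrawal rats 13 to 16 shared another and rats 17 and 18 yet another, so that group and index cannot be told apart in this comparison. If the index enters the model, the groups are joined only through ethanol rats, of which 7 and 8 share the index of the controls.

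No gene passed edgeR's quasi-likelihood test at a Benjamini-Hochberg adjusted p of 0.05 among 17637 genes tested (0% called), and none did at 0.10. An unadjusted p under 0.05 was reached by 1732 genes (9.82%), of which 1100 (6.24%) were higher and 632 (3.58%) lower in withdrawal, while 53.7% of all genes had a log2 difference above 0. The 2 groups of 6 rats did not overlap at all for 107 genes (0.607%), 40 higher (0.227%) and 67 lower (0.38%). Choosing genes by a low p in the same rats favours such groups, so a lack of overlap in genes named that way is a description only. Without rat 13, 2 of 17751 genes were called (0.0113%): Idi1, an enzyme of cholesterol synthesis, and Capn6, a calpain family protein without protease activity, both of which fell. The unadjusted count was then 1527 (8.6%), 782 higher (4.41%) and 745 lower (4.2%), and 216 genes (1.22%) had groups that did not overlap. DESeq2 called 47 genes on the same 18 libraries, 19 higher and 28 lower, or 113 without rat 13. Because RNA came from whole dissected tissue, fewer cells of a type and less RNA per cell cannot be told apart in any value below.

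The genes of cholesterol synthesis lay lower in withdrawal at steps from the first of the pathway to the last. Of 22 members, all tested, 19 lay lower and 3 higher, 17 of them lower at an unadjusted p under 0.05 (3.58% of all genes were), and 9 had non-overlapping groups (0.38% of all genes were lower in that way). The median log2 difference was -0.39, beside 0.01 over all tested genes. This list and the others were chosen with earlier results of these data known, so counts of their members are a description only. Without rat 13 every member lay lower, 20 of 22 at an unadjusted p under 0.05 (4.2% of all genes) and 10 of 22 without overlap (0.629% of all genes), with a median of -0.34, and Idi1 alone passed edgeR's adjusted threshold. The summed level of the pathway was 2239.8 to 2633 CPM in control rats (median 2513) and 1268 to 2215 CPM in withdrawal rats (median 1858). Every withdrawal rat was below every control rat: rat 13 lowest, rats 15 to 18 close together at 1837 to 1927 CPM, and rat 14 highest at 2215 CPM, next to control rat 5 at 2239.8 CPM.

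The promoters of 4 of the lowest members are printed because these genes lay lower together. They are the bases just before the transcription start in RefSeq (GRCr8), read 5′ to 3′ on the strand of the gene, with each CCAAT or its reverse complement in capitals where it lies wholly before the start.
Idi1: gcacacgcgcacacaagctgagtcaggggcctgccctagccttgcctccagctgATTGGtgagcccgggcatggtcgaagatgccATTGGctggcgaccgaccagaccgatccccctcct
Mvd: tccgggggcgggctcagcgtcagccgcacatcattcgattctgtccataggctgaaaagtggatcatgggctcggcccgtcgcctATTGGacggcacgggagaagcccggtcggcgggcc
Hsd17b7: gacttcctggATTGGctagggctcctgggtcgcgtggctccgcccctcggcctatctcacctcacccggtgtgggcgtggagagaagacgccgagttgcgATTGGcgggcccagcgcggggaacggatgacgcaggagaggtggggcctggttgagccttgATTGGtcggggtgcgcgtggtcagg
Hmgcs1: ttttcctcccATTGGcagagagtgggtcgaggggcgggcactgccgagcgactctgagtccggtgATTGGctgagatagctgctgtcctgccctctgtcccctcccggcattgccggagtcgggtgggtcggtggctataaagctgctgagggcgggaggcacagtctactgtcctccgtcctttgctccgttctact
These are chr17:66547525-66547644, chr19:67414975-67415094 and chr13:84722755-84722940, all on the minus strand, and chr2:53382106-53382303 on the plus strand. CCAAT, searched on both strands from 250 bases before to 50 after the start, was found in 13 of the 17 members with a promoter in the table (76.5%) and in 39.6% of 27457 gene promoters of the same length. The sterol regulatory element spelled TCACNCCAC was in none of the 17, and in 1.25% of all promoters. A letter match is a description of the sequence and not a measured binding site.

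The mevalonate arm builds isoprenoid units from acetyl-CoA. Idi1, which isomerises isopentenyl diphosphate (chromosome 17, 57976266 to 57984036 in Rnor_6.0), lay between 83.9 and 100.1 CPM in the control rats (median 92.3) and between 36.2 and 76.5 CPM in the withdrawal rats (median 66.6). The groups did not overlap, rat 13 was far below the others and rat 14 was the highest at 76.5 CPM. The log2 difference was -0.53 ± 0.12 (SE; edgeR adjusted p = 0.302), and without rat 13, where Idi1 fell, it was -0.42 ± 0.06 (edgeR adjusted p = 0.0393). Mvd, the decarboxylase that makes isopentenyl diphosphate, had the lowest p of the pathway and was at 21.9 to 31.4 CPM in control (median 26.9) and 13.8 to 21.0 CPM in withdrawal (median 17.4). Again no withdrawal rat reached a control rat, and the log2 difference was -0.67 ± 0.12 (edgeR adjusted p = 0.193), or -0.62 ± 0.12 without rat 13 (edgeR adjusted p = 0.119). Hmgcs1, the synthase that makes HMG-CoA, was at 498 to 554 CPM in control (median 517) and 182 to 438 CPM in withdrawal (median 342), with groups that did not overlap and a log2 difference of -0.66 ± 0.16 [-0.54 ± 0.12].

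Acat2, the cytosolic thiolase of the first step, was at 30.5 to 38.8 CPM in control (median 35.3) and 15.6 to 29.2 CPM in withdrawal (median 22.1) with a log2 difference of -0.68 ± 0.13 [-0.60 ± 0.12] (edgeR adjusted p = 0.255). Its neighbour Acat2l1 (chromosome 1, 48008574 to 48025730) carries a near copy of the same gene, so the counts of both are uncertain where reads could match either; it had the lowest p of all genes and was at 7.35 to 10.3 CPM in control (median 8.12) and 3.89 to 5.48 CPM in withdrawal (median 5.12). Groups of both genes did not overlap, and the difference of Acat2l1 was -0.76 ± 0.13 [-0.70 ± 0.13] on the log2 scale (edgeR adjusted p = 0.193). The long noncoding RNA LOC102553528 (chromosome 1, 47969690 to 47972459, minus strand) starts within the first bases of Acat2 (47972399 to 47992654, plus strand) and runs away from it. It also had non-overlapping groups, 11.4 to 14.0 CPM in control (median 13.2) and 8.24 to 10.9 CPM in withdrawal (median 9.42), and a log2 difference of -0.47 ± 0.10 [-0.47 ± 0.10], in counts that were assigned by strand. Fdps, which makes farnesyl diphosphate, lay at 109 to 162 CPM in control (median 158) and 90.2 to 129.9 CPM in withdrawal (median 106) with a difference of -0.47 ± 0.10 [-0.43 ± 0.10], and its groups met at control rat 5 (109 CPM), the other controls being at 143 CPM or more.

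In the squalene and lanosterol steps, Fdft1, the squalene synthase, differed by -0.48 ± 0.13 [-0.37 ± 0.09] on the log2 scale, Sqle, the squalene epoxidase and a second control point of the pathway, by -0.45 ± 0.11 [-0.36 ± 0.07], and Lss, the cyclase that makes lanosterol, by -0.29 ± 0.10 [-0.22 ± 0.08]. The groups of Sqle did not overlap: it was at 96.3 to 119 CPM in control (median 109) and 53.0 to 94.8 CPM in withdrawal (median 82.5). Fdft1 was at 139 CPM in control rat 5, within the withdrawal range, and at 173 to 188 in the other controls. Among the steps after lanosterol, the demethylase Cyp51, the ketoreductase Hsd17b7, the scaffold protein Erg28 and the reductase Dhcr7, which makes cholesterol from 7-dehydrocholesterol, all had non-overlapping groups. Hsd17b7 was at 22.0 to 27.9 CPM in control (median 25.3) and 12.1 to 21.6 CPM in withdrawal (median 17.0), a log2 difference of -0.58 ± 0.12 [-0.50 ± 0.10] (edgeR adjusted p = 0.255). Differences for the others were -0.53 ± 0.16 [-0.40 ± 0.11], -0.26 ± 0.07 [-0.22 ± 0.06] and -0.47 ± 0.16 [-0.38 ± 0.14] in that order. Nsdhl, Sc5d and Msmo1, further enzymes of these steps, had log2 differences of -0.32 ± 0.08 [-0.32 ± 0.09], -0.39 ± 0.13 [-0.27 ± 0.07] and -0.39 ± 0.15 [-0.28 ± 0.11], with ranges that met those of the controls.

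The 3 members that lay higher with all rats lay lower without rat 13. Tm7sf2, a sterol C14 reductase, was at 83.2 CPM in rat 13 and at 8.44 to 12.3 in the 5 other withdrawal rats, all of them below the control range of 14.2 to 16.7. Its log2 difference was 0.55 ± 0.48 with rat 13 and -0.59 ± 0.15 without. Pmvk, the phosphomevalonate kinase, was at 85.2 CPM in rat 13 against 45.5 to 59.0 in controls, with a difference of 0.02 ± 0.12 that became -0.15 ± 0.06. Lbr, the lamin B receptor that also has C14 reductase activity, differed by 0.02 ± 0.06 and -0.01 ± 0.05. Mvk, the mevalonate kinase, and Ebp, a sterol isomerase, had log2 differences of -0.32 ± 0.10 [-0.30 ± 0.10] and -0.16 ± 0.10 [-0.23 ± 0.09].

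In chronic ethanol rats against the same controls, 1030 genes reached an unadjusted p under 0.05 (5.84%), 547 higher (3.1%) and 483 lower (2.74%). The cholesterol synthesis genes there had a median of -0.14 over the 22 members, all lower and 3 at an unadjusted p under 0.05. Withdrawal rats against ethanol rats, where 15.3% of all genes reached an unadjusted p under 0.05 and 53.3% had a log2 difference above 0, had a median of -0.25. There 11 of 22 lay lower at an unadjusted p under 0.05 (5.95% of all genes) and none passed an adjusted p of 0.05 in edgeR. Without rat 13 that median was -0.18, with 12 of 22 lower at an unadjusted p under 0.05 (6.81% of all genes) and none past edgeR's adjusted threshold (0.124% of all genes). Hmgcs1 differed by -0.22 in ethanol against control and by -0.44 ± 0.16 in withdrawal against ethanol (-0.32 ± 0.12 without rat 13). Mvd differed by -0.29 and -0.38 ± 0.12 (-0.33 ± 0.12). When the model held the index, the median in withdrawal against control was -0.24, the value nearest 0 of all settings tried. Mvk (0.04), Msmo1 (0.04) and Dhcr7 (0.08) then lay on the other side of 0. Myelinating oligodendrocyte markers, of which 15 of 15 were tested, summed to 32154 to 44135 CPM in control rats, 39684 to 46982 in withdrawal rats 14 to 18 and 17914 in rat 13. Astrocyte markers summed to 9002 to 11829 CPM in control rats, 8957 to 11316 in withdrawal rats 14 to 18 and 5877 in rat 13. The part of both kinds of glia in the values of the pathway was not tested.

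**Figure D1:**
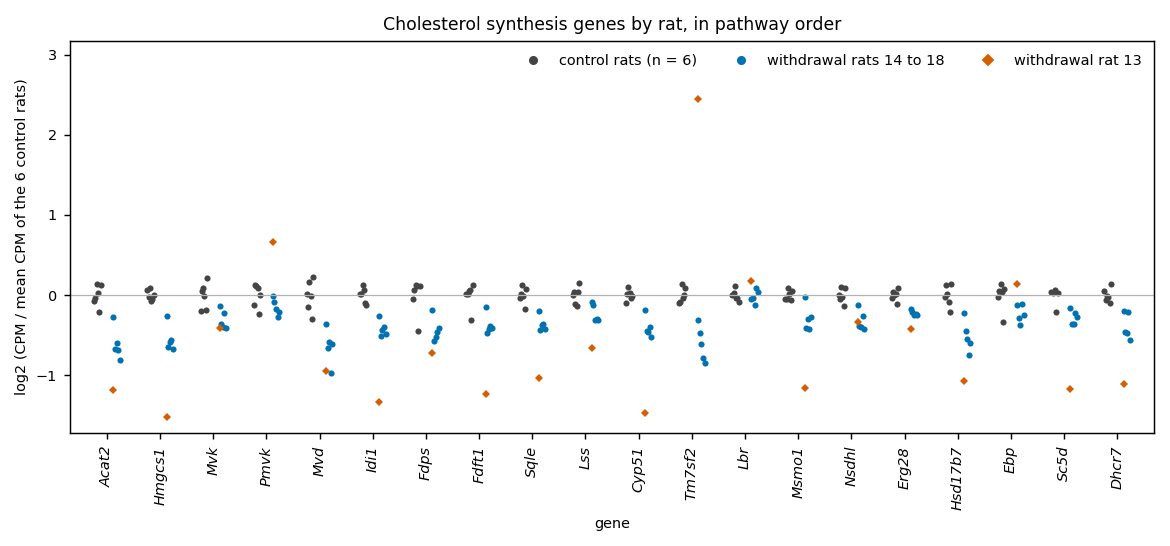
Level of 20 of the 22 cholesterol synthesis genes in each rat, as the log2 of its CPM over the mean of the 6 control rats, in pathway order; grey points are control rats, blue points withdrawal rats 14 to 18 and orange diamonds withdrawal rat 13. Blue points sit below the grey ones for most genes, while rat 13 is lowest for many genes and highest for Tm7sf2 (83.2 CPM), Pmvk and Lbr.

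Genes that sense sterols and take up cholesterol did not share a direction. Of 14 tested, 7 lay higher and 7 lower (median -0.02, -0.07 without rat 13), 4 lower and 1 higher at an unadjusted p under 0.05 (3.58% and 6.24% of all genes). Insig1, which holds SREBP in the endoplasmic reticulum and is itself an SREBP target, was at 155 to 237 CPM in control (median 213) and 85.4 to 189 CPM in withdrawal (median 153), a difference of -0.49 ± 0.14 [-0.37 ± 0.09]. Control rat 5, at 155 CPM, was the one control within the withdrawal range. The sterol carrier Stard4, an SREBP2 target, differed by -0.44 ± 0.15 [-0.32 ± 0.10]. The factor genes differed from each other: Srebf2 by -0.15 ± 0.12 [-0.05 ± 0.09], with overlapping ranges, and Srebf1, whose product drives mainly fatty acid genes, by 0.36 ± 0.12 [0.33 ± 0.12], at 91.7 to 137 CPM in control (median 108) and 135 to 163 CPM in withdrawal (median 139). Fatty acid synthesis and desaturation genes had a median of -0.08 (-0.01 without rat 13) over 22 members, with 2 at an unadjusted p under 0.05 in each direction (6.24% of all genes were higher and 3.58% lower at that p). Fasn, the fatty acid synthase, was lower (-0.25 ± 0.11 [-0.14 ± 0.05]), as was Acss2, which makes acetyl-CoA from acetate (-0.37 ± 0.15 [-0.31 ± 0.15]), and Elovl2, an elongase of polyunsaturated fatty acids, was higher (0.38 ± 0.12 [0.34 ± 0.13]). Fads6, a desaturase family gene outside the list, had non-overlapping groups and a log2 difference of -0.34 ± 0.09 [-0.25 ± 0.05] (edgeR adjusted p = 0.109 without rat 13). Cholesterol efflux and turnover genes had 6 of 12 on each side and none at an unadjusted p under 0.05.

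Outside lipid metabolism, the genes with the lowest p among those lying lower were of varied function. Capn6 (chromosome X, 115049113 to 115073824), which stabilises microtubules, was at 3.89 to 5.83 CPM in control (median 4.56) and 1.27 to 4.00 CPM in withdrawal (median 2.06). Rat 13, at 4.00 CPM, lay within the control range, and the 5 other withdrawal rats, at 1.27 to 2.35, lay below every control. Without rat 13 Capn6 fell, with a log2 difference of -1.28 ± 0.18 (edgeR adjusted p = 0.0393), against -1.04 ± 0.23 with it (adjusted p = 0.284). In chronic ethanol rats Capn6 was already low, at 1.26 to 2.44 CPM, and withdrawal and ethanol rats differed by 0.44 ± 0.23, or by 0.21 ± 0.18 without rat 13. The noncoding RNA LOC108352949 (chromosome 15, 67567690 to 67588470) was likewise low in both groups that had ethanol: 10.3 to 14.3 CPM in control (median 13.3) and 2.89 to 6.97 CPM in withdrawal (median 5.23), and 3.39 to 9.81 in ethanol rats. Its withdrawal and ethanol groups differed by -0.02 ± 0.23 (0.11 ± 0.22 without rat 13). Its withdrawal and control groups were wide apart and its log2 difference was -1.29 ± 0.24 [-1.17 ± 0.22] (edgeR adjusted p = 0.193). Idh1, the cytosolic NADP-dependent isocitrate dehydrogenase, was likewise at 78.0 ± 1.96 CPM in ethanol and 77.5 ± 4.83 in withdrawal (SD, n = 6), below 94.5 ± 10.1 in control, a difference of -0.29 ± 0.06 [-0.28 ± 0.06] in withdrawal.

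Nnat was nearer to control in the ethanol rats than in withdrawal. This imprinted gene for the small membrane protein neuronatin was at 508 to 766 CPM in control (median 623) and 283 to 492 CPM in withdrawal (median 398), with 412 to 684 in ethanol rats. Withdrawal and control did not overlap, and the difference was -0.66 ± 0.14 [-0.61 ± 0.15] against control and -0.48 ± 0.14 against ethanol (-0.43 ± 0.15 without rat 13). Klhl38, a BTB-kelch protein gene read at low level, differed by -0.94 ± 0.20 [-0.86 ± 0.20], H2ac25, a histone H2A gene, by -0.36 ± 0.08 [-0.36 ± 0.08], and Col20a1, a collagen gene, by -0.51 ± 0.11 [-0.49 ± 0.12]; their edgeR adjusted p was 0.284 in each case. Withdrawal against ethanol rats, without rat 13, gave -0.53 ± 0.20 for Klhl38, -0.14 ± 0.08 for H2ac25 and -0.08 ± 0.12 for Col20a1. Gpr17, a receptor that marks oligodendrocyte precursors on the way to myelination, was at 42.9 to 58.9 CPM in control (median 45.0). In withdrawal it was at 18.5 to 37.7 CPM (median 33.0), with no overlap and a difference of -0.61 ± 0.14 [-0.49 ± 0.11]. Withdrawal and ethanol rats differed by -0.10 ± 0.11 in Gpr17 without rat 13. Summed precursor markers were 1466 to 2093 CPM in control and 1711 to 2162 in withdrawal rats 14 to 18, which was not below the control range, and 948 in rat 13, which was below it. The part of these markers in the value of Gpr17 was not tested.

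Among the genes that lay higher, Ndrg1 (chromosome 7, 107734326 to 107775701), a stress-responsive gene needed by myelinating cells, had the lowest p. Ndrg1 was at 279 to 371 CPM in control (median 339.9) and 427 to 511 CPM in withdrawal (median 459), so that rat 13, the lowest withdrawal rat, still exceeded control rat 2, the highest control. The log2 difference was 0.46 ± 0.08 (edgeR adjusted p = 0.193), 0.48 ± 0.09 without rat 13 (adjusted p = 0.105), and 0.08 ± 0.08 in ethanol against control. Withdrawal and ethanol rats differed by 0.37 ± 0.08, or by 0.40 ± 0.09 without rat 13 (edgeR adjusted p = 0.0639). Egln1, the prolyl hydroxylase that marks HIF1A for degradation, also had no overlap: 46.1 to 55.3 CPM in control (median 51.1) and 58.3 to 67.3 CPM in withdrawal (median 61.7), a difference of 0.30 ± 0.06 [0.28 ± 0.06], with 0.22 ± 0.06 already in ethanol rats. Vegfa, the vascular growth factor, lay at 184 to 248 CPM in control (median 211) and 214 to 363 CPM in withdrawal (median 283), with rats 13 and 15 to 18 above every control and rat 14 within the control range, and differed by 0.43 ± 0.12 [0.44 ± 0.13]. These 3 belong to the hypoxia responsive list, of which 11 of 16 lay higher (median 0.13), as did 53.7% of all genes. At an unadjusted p under 0.05, 4 of them lay higher (6.24% of all genes) and 1 of the 5 others lower (3.58% of all genes). Without rat 13, 9 lay higher and 7 lower (median 0.08), where 46.9% of all genes lay higher. At that p 5 were then higher (4.41% of all genes) and 1 lower (4.2%). The list was chosen with earlier results of these data known, so its counts are a description only.

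Spry1, a Sprouty protein gene induced by growth factors, was at 1.98 to 3.56 CPM in control (median 2.74) and 3.84 to 4.81 CPM in withdrawal (median 4.48), and Dusp6, the phosphatase of ERK, at 9.32 to 14.5 CPM in control (median 11.9) and 15.4 to 19.9 CPM in withdrawal (median 16.9). Both had non-overlapping groups, with differences of 0.64 ± 0.14 [0.65 ± 0.15] and 0.51 ± 0.13 [0.51 ± 0.13]. The growth factor receptor gene Igf1r differed by 0.32 ± 0.07 [0.29 ± 0.07] and overlapped at rat 15. Other genes without overlap were Bcl6b, a repressor expressed in endothelial cells (0.88 ± 0.21 [0.89 ± 0.22]), Samd1, which binds unmethylated CpG islands (0.33 ± 0.07 [0.30 ± 0.07]), the nucleoporin Nup160 (0.26 ± 0.06 [0.22 ± 0.05]) and Sprtn, a protease that repairs DNA-protein crosslinks (0.20 ± 0.05 [0.19 ± 0.05]). Kif5c, a neuronal kinesin heavy chain, differed by 0.30 ± 0.07 [0.32 ± 0.07], and Pla1a, a phosphatidylserine lipase, by 1.37 ± 0.33 [1.35 ± 0.34], with rats 14 and 15 inside the control range. The edgeR adjusted p was 0.284 for Samd1 and Igf1r and 0.302 for Spry1, Bcl6b, Nup160, Sprtn, Kif5c and Pla1a. Of all genes, 0.227% were higher without overlap, and the choice of these genes by p in the same rats favours it. Dusp6 belongs to the immediate early genes, where 19 of 27 lay higher (median 0.26, 0.10 without rat 13), as did 53.7% of all genes. Of these 19, 3 reached an unadjusted p under 0.05 (6.24% of all genes). In ethanol against control the list had a median of 0.53, with 13 of 27 higher at that p (3.1% of all genes). Its median in withdrawal against ethanol was -0.52 with all rats. Ethanol rat 11, which enters both of these medians, stood apart, with a summed level of 1210 CPM for the list. The other ethanol rats were at 358 to 531 CPM, control rats at 336 to 468 and withdrawal rats at 362 to 504. Fos, the classic activity marker, was at 5.55 to 30.3 CPM in control (median 7.58) and 8.97 to 27.3 CPM in withdrawal (median 11.4) and did not separate the groups (0.26 ± 0.71 [-0.06 ± 0.73]), and Bdnf, the neurotrophin, did not either (-0.44 ± 0.36 [-0.32 ± 0.36]), its highest value being 35.0 CPM in control rat 5.

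**Figure D2:**
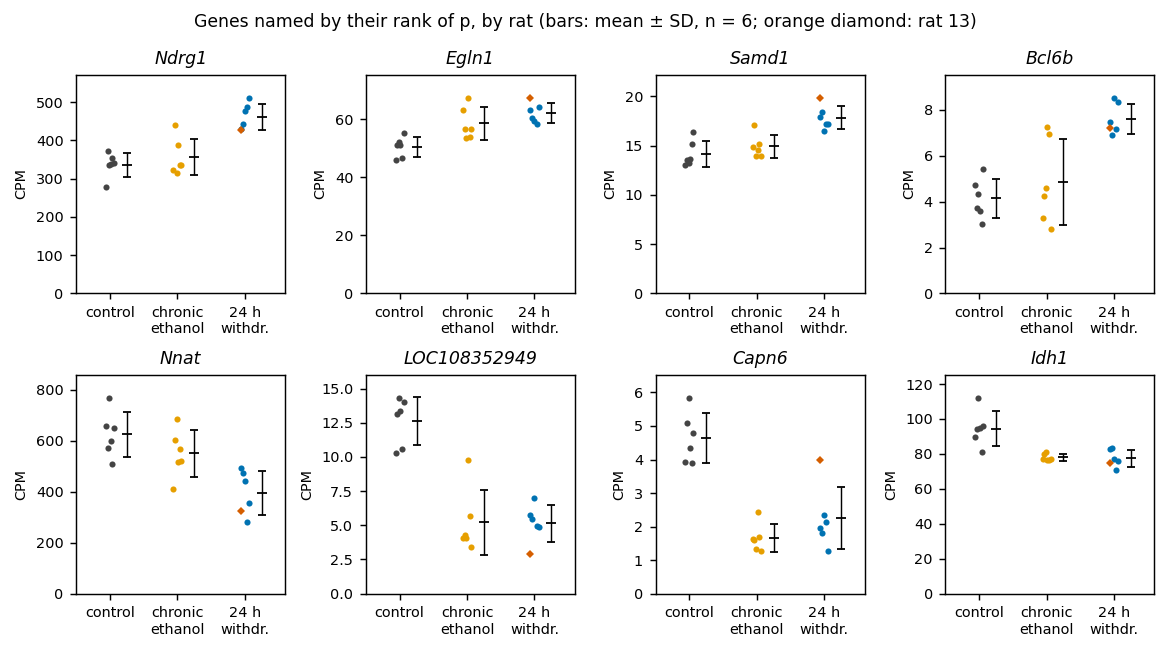
CPM of 8 genes in each rat of the control, chronic ethanol and withdrawal groups; points are rats, bars are the mean and SD (n = 6), and the orange diamond is rat 13. Ndrg1, Samd1 and Nnat in ethanol rats lie near control, whereas LOC108352949, Capn6 and Idh1 are low in both ethanol and withdrawal rats; rat 13 lies inside the control range for Capn6 (4.00 CPM).

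A further set was higher in rats 14 to 18 and low in rat 13. Kif5a, the kinesin heavy chain most specific to neurons, was at 765 to 866 CPM in control, 891 to 1241 in rats 14 to 18 and 591 in rat 13. Its difference was 0.39 ± 0.07 without rat 13 (edgeR adjusted p = 0.105) and 0.28 ± 0.12 with it, beside 0.45 ± 0.12 in ethanol rats. Efhd1, a mitochondrial calcium sensor, Tyro3, a TAM receptor found in myelinating glia, and Fgfr2, a receptor of oligodendrocytes and astrocytes, differed by 0.32 ± 0.13 [0.44 ± 0.08], 0.18 ± 0.12 [0.30 ± 0.06] and 0.23 ± 0.16 [0.37 ± 0.07]. Pde8a, a cAMP phosphodiesterase, Pim3, a survival kinase, and Spred1, an inhibitor of Ras signalling, differed by 0.38 ± 0.11 [0.46 ± 0.09], 0.38 ± 0.16 [0.52 ± 0.10] and 0.18 ± 0.13 [0.30 ± 0.06]. All 7 were named for their low p in the fit without rat 13. Their groups did not overlap once that rat was left out (0.595% of all genes were higher in that way). The choice by p in the same rats favours this, so it is a description only. Rat 13 was below every control for 6 of the 7, Pde8a being the exception at 65.4 CPM. Myrf, the master transcription factor of myelination, was at 214 to 275 CPM in control and 265 to 337 in rats 14 to 18 (0.19 ± 0.17 [0.34 ± 0.08]). Myelinating oligodendrocyte markers had 11 of 15 higher without rat 13 (median 0.11), 3 at an unadjusted p under 0.05 (4.41% of all genes), and 5 of 15 higher with it (median -0.04). The part of these markers in the values of Tyro3, Fgfr2 and Myrf was not tested.

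**Figure D3:**
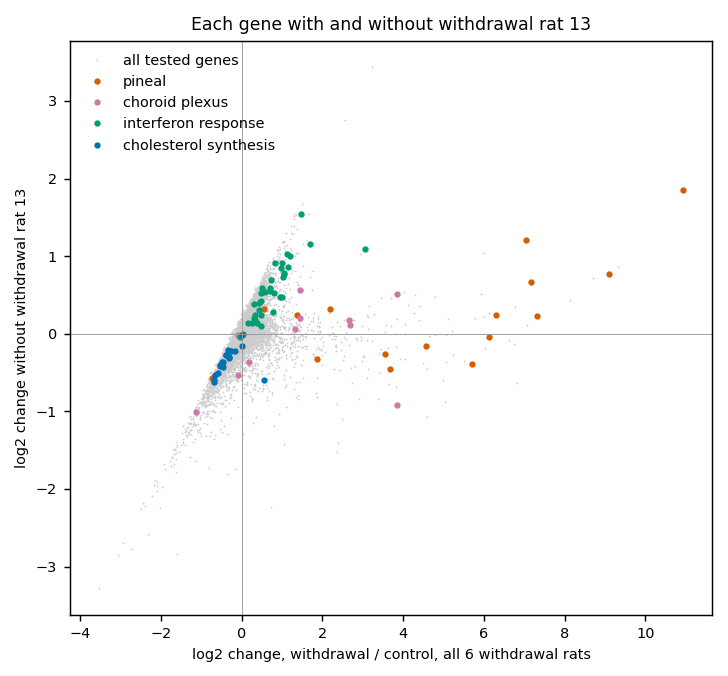
Log2 difference in withdrawal against control for each tested gene with all rats (horizontal) and without rat 13 (vertical); coloured points are members of 4 lists. Most pineal genes lie far to the right (list median 5.13 with all rats and 0.24 without rat 13), as do most choroid plexus genes, except for 3 of 11 below 0 with all rats. Most cholesterol synthesis genes lie near the diagonal below 0, Tm7sf2 (0.55 and -0.59) being an exception.

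Interferon response genes had summed levels above every control in 3 of the 6 withdrawal rats and within the control range in the others. Of 36 tested, 35 lay higher (median 0.71), 21 at an unadjusted p under 0.05 (6.24% of all genes), none with non-overlapping groups. Without rat 13 the median was 0.53, with 34 higher, where 46.9% of all genes lay higher, and 15 at an unadjusted p under 0.05 (4.41% of all genes). Summed levels were 1052 CPM in rat 13, 974 in rat 16 and 829 in rat 17. Rats 14, 15 and 18, at 502, 554 and 525 CPM, lay inside the control range of 451 to 727, whose top was control rat 3. That rat was also the one high in meningeal markers. The next highest control, rat 2, was at 552 CPM, just below rat 15, so the place of rat 15 within the control range rests on control rat 3.

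Promoters of a pair of these genes are printed because members of the list were high in the same rats; capitals mark the interferon-stimulated response element, spelled as GAAA, 2 bases of any kind and GAAA again, or its reverse complement.
Irf7: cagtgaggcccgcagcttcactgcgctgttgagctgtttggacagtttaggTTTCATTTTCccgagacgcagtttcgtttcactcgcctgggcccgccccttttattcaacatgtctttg
Parp14: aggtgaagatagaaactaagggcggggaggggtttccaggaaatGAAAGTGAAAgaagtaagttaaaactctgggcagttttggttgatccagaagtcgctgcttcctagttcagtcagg
They are chr1:205800024-205800143 on the minus strand and chr11:78408014-78408133 on the plus strand, in GRCr8 from RefSeq. The motif was in 19 of the 28 list members with a promoter in the table (67.9%) and in 4.12% of all gene promoters.

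Parp14, an ADP-ribosyltransferase induced by interferon, had the lowest p of the list and was at 5.96 to 8.46 CPM in control (median 7.71) and 7.41 to 16.9 CPM in withdrawal (median 12.2). Rats 13, 16 and 17 were at 16.9, 15.0 and 15.2 CPM, rats 14 and 15 just above the highest control and rat 18, at 7.41, among the controls. The log2 difference was 0.71 ± 0.17 [0.59 ± 0.16] (edgeR adjusted p = 0.302). Irf7 was at 2.97 to 11.8 CPM in control (median 6.20) and 5.08 to 53.9 CPM in withdrawal (median 16.8), with rat 13 at 53.9, rat 16 at 25.8 and rat 17 at 27.9 CPM. Its difference was 1.69 ± 0.51 [1.16 ± 0.44]. Oasl2, of the oligoadenylate synthetase family, separated the same 3 rats, at 33.1, 34.4 and 25.4 CPM against at most 10.6 in the others (1.20 ± 0.36 [1.01 ± 0.36]). Oasl, its relative, was mainly a rat 13 value (32.7 CPM, others up to 3.08), and its difference went from 3.06 ± 0.85 to 1.09 ± 0.46 without that rat. Chronic ethanol rats, against the same controls, had a list median of -0.54 and 17 of 36 lower at an unadjusted p under 0.05 (2.74% of all genes). Withdrawal against ethanol rats gave a median of 1.25, with 33 of 36 higher at an unadjusted p under 0.05 (9.38% of all genes) and none at an adjusted p under 0.05 in edgeR. Without rat 13 that median was 1.14, with 32 of 36 higher at an unadjusted p under 0.05 (7.14% of all genes). Oasl2 then passed edgeR's adjusted threshold (0.124% of all genes), with a log2 difference of 1.96 ± 0.37.

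Antigen presentation genes of MHC class I had 13 of 14 higher (median 0.26), where 53.7% of all genes lay higher. Only 1 of them reached an unadjusted p under 0.05 (6.24% of all genes). Without rat 13, 9 lay higher and 5 lower (median 0.09), 0 of them at that p, where 46.9% of all genes lay higher. Tap1, the peptide transporter, was at 12.2, 9.82 and 12.3 CPM in rats 13, 16 and 17 against 4.45 to 8.35 in controls. Complement and MHC class II genes had a median of 0.10 (0.03 without rat 13), and complement C3 lay lower (-0.71 ± 0.26 [-0.58 ± 0.24]). Microglia markers summed to 484 to 607 CPM in control and 501 to 626 CPM in withdrawal, with rats 16 and 17 at 618 and 501, which covers nearly the same range.

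**Figure D4:**
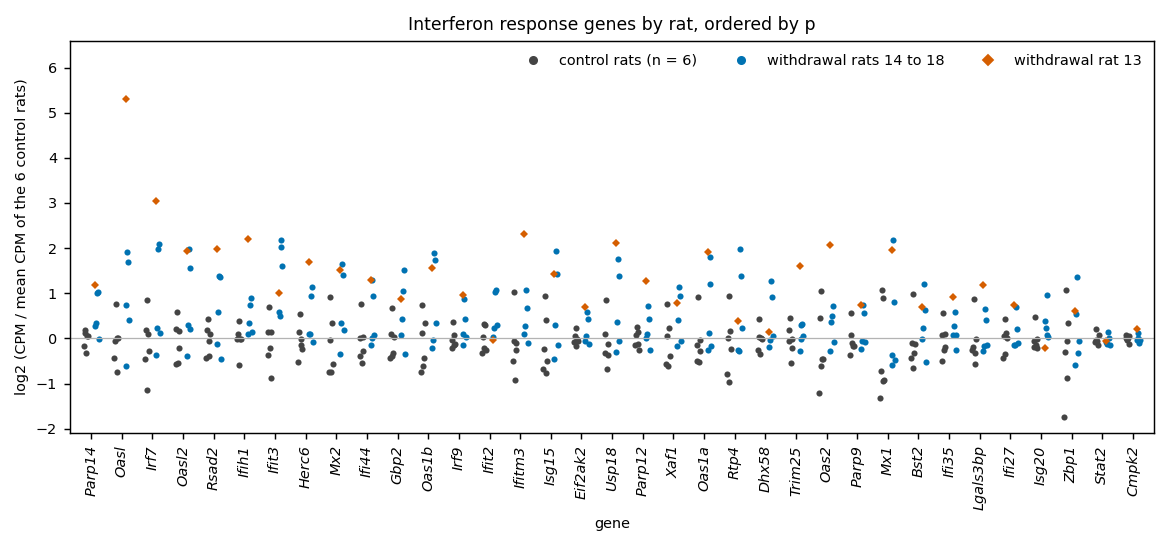
Level of 35 of the 36 tested interferon response genes in each rat, as the log2 of its CPM over the mean of the 6 control rats, ordered by p; grey points are control rats, blue points withdrawal rats 14 to 18 and the orange diamond rat 13. For most genes rat 13 and a pair of blue points stand above the controls and the remaining blue points lie among them; Irf7 reaches 53.9 CPM in rat 13.

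Markers of red blood cells lay lower in both groups that had ethanol. All 5 tested members were lower at an unadjusted p under 0.05 (3.58% of all genes), with a median of -1.36 in withdrawal (-1.33 without rat 13) and -1.34 in ethanol against the same controls. Hbb, a haemoglobin beta chain, was at 81.4 to 217 CPM in control (median 117) and 39.9 to 80.6 CPM in withdrawal (median 48.7), with no overlap and a difference of -1.35 ± 0.33 [-1.30 ± 0.35] (edgeR adjusted p = 0.302), and Hba-a2, an alpha chain with near-identical copies whose counts are uncertain, differed by -1.44 ± 0.37 [-1.41 ± 0.40]. The 8 markers summed to 186 to 528 CPM in control and 93.8 to 176 in withdrawal rats. How much blood was left in each dissection was not measured. Endothelial and pericyte markers were at 793 to 1109 CPM in withdrawal (median 953) and 728 to 1586 in control (median 841). The control top was rat 3, and the other controls were at 728 to 1057 CPM.

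Dopamine neuron genes varied widely between rats of each group. Of 26 tested, 24 lay lower (median -0.37, -0.26 without rat 13), none of the 24 at an unadjusted p under 0.05. Th, tyrosine hydroxylase, was at 233 to 763 CPM in control (median 499) and 17.6 to 628 CPM in withdrawal (median 362), with rat 17 at 17.6 and rat 15 at 628 CPM, and a difference of -0.52 ± 0.60 [-0.34 ± 0.61]. Slc6a3 gave -0.54 ± 0.71 [-0.37 ± 0.73] and Ret, the GDNF receptor of these neurons, -0.45 ± 0.33 [-0.33 ± 0.34]. Gch1, which makes the cofactor of Th and is also strong in the pineal gland, was at 407 CPM in rat 13 and within the control range of 4.39 to 19.5 in 4 of the 5 others, so its difference of 2.46 ± 0.91 became -0.10 ± 0.44 without that rat. Among 15 GABA-A subunits and 15 ionotropic glutamate receptor genes none reached an unadjusted p under 0.05 with all rats, and the medians were -0.08 and -0.03. Without rat 13 the medians were 0.04 and 0.02, with 2 glutamate receptor genes higher at that p (4.41% of all genes). Ndrg2, an astrocyte gene, lay lower (-0.29 ± 0.10 [-0.20 ± 0.07]) and was higher in ethanol rats, at 1908 ± 172 CPM against 1278 ± 221 in withdrawal (SD, n = 6). Of 16 astrocyte markers, 5 lay higher and 11 lower (median -0.08), 1 higher and 2 lower at an unadjusted p under 0.05 (6.24% and 3.58% of all genes). Without rat 13, 9 lay higher (median 0.03), 5 higher and 1 lower at that p (4.41% and 4.2%). The part of these markers in the value of Ndrg2 was not tested. Hcn2, a pacemaker channel of rhythmic neurons, had a log2 difference of 0.31 ± 0.12 [0.25 ± 0.12], and Penk, the enkephalin precursor, was high in rats 13 (282 CPM) and 17 (106 CPM).

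Stress, chromatin and metabolic lists had medians nearer 0. Glucocorticoid responsive genes lay higher in 15 of 20 (median 0.16, 4 at an unadjusted p under 0.05, as were 6.24% of all genes; 0.13 and 5 without rat 13, against 4.41% of all genes). Sgk1, a kinase induced by glucocorticoids, was at 43.3 to 175 CPM in control (median 113) and 65.6 to 371 CPM in withdrawal (median 214) (0.95 ± 0.42 [1.03 ± 0.44]) and the cell cycle inhibitor Cdkn1a at 8.05 to 14.2 CPM in control (median 10.8) and 9.62 to 28.7 CPM in withdrawal (median 13.8) (0.58 ± 0.24 [0.70 ± 0.23]); rats 16, 17 and 18 were above every control for both, with rat 18 highest. Fkbp5, the chaperone that restrains the receptor, was high mainly in rat 13 (82.9 CPM), and its difference went from 0.53 ± 0.24 to 0.22 ± 0.18 without it. Clock genes had 10 higher and 9 lower, 4 and 2 of them at an unadjusted p under 0.05 (6.24% and 3.58% of all genes). Without rat 13, 9 lay higher and 10 lower, 1 of each at that p (4.41% and 4.2% of all genes). Nr1d1, a repressor of the clock, lay higher (0.37 ± 0.13 [0.33 ± 0.13]) and Tef, an output factor, lower (-0.26 ± 0.10 [-0.17 ± 0.07]). Of the 29 genes for DNA or histone methylation, 28 were on the higher side (median 0.16), while 53.7% of all genes lay higher. At an unadjusted p under 0.05, 9 lay higher (6.24% of all genes). Without rat 13, 22 lay higher and 7 lower (median 0.07), while 46.9% of all genes lay higher. At that p 4 were then higher (4.41% of all genes). Rat 13 exceeded every control and every other withdrawal rat for 25 of the 29. The list summed to 2546 CPM in rat 13, 1752 to 1829 in rats 14 to 18 and 1639 to 1862 in control. Dnmt3b, a de novo DNA methyltransferase, differed by 0.37 ± 0.12 [0.32 ± 0.12] and Kmt2c, a histone H3 methyltransferase, by 0.19 ± 0.07 [0.12 ± 0.05]. The acetyltransferase genes Kat6a and Ep300 differed by 0.30 ± 0.09 [0.25 ± 0.08] and 0.19 ± 0.06 [0.13 ± 0.05]. Hdac2, a histone deacetylase, was at 139 CPM in rat 13 and 65.8 to 75.6 in the others, near the control range of 65.9 to 71.9.

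Nuclear genes of oxidative phosphorylation lay slightly lower in 43 of 49 (median -0.08 with and without rat 13), 6 at an unadjusted p under 0.05 (3.58% of all genes). The complex I subunit Ndufa5 differed by -0.13 ± 0.05 [-0.10 ± 0.04] and the ATP synthase subunit Atp5mc3 by -0.12 ± 0.04 [-0.11 ± 0.04]. The median of that list was 0.08 when the model held the index. Antioxidant genes included Prdx6, a peroxiredoxin that lay lower (-0.32 ± 0.10 [-0.23 ± 0.07]), and Gclm, of glutathione synthesis (-0.17 ± 0.06 [-0.12 ± 0.05]). In ethanol and acetate metabolism, the mitochondrial aldehyde dehydrogenase Aldh1b1 lay lower (-0.30 ± 0.10 [-0.26 ± 0.10]), at 11.6 ± 1.19 CPM against 14.6 ± 1.84 in ethanol rats (SD, n = 6). Heat shock genes had no shared direction, with Dnaja1, an HSP70 cochaperone, lower (-0.16 ± 0.06 [-0.13 ± 0.05]) and Hspb1 high in rat 13 (85.8 CPM).

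**Figure D5:**
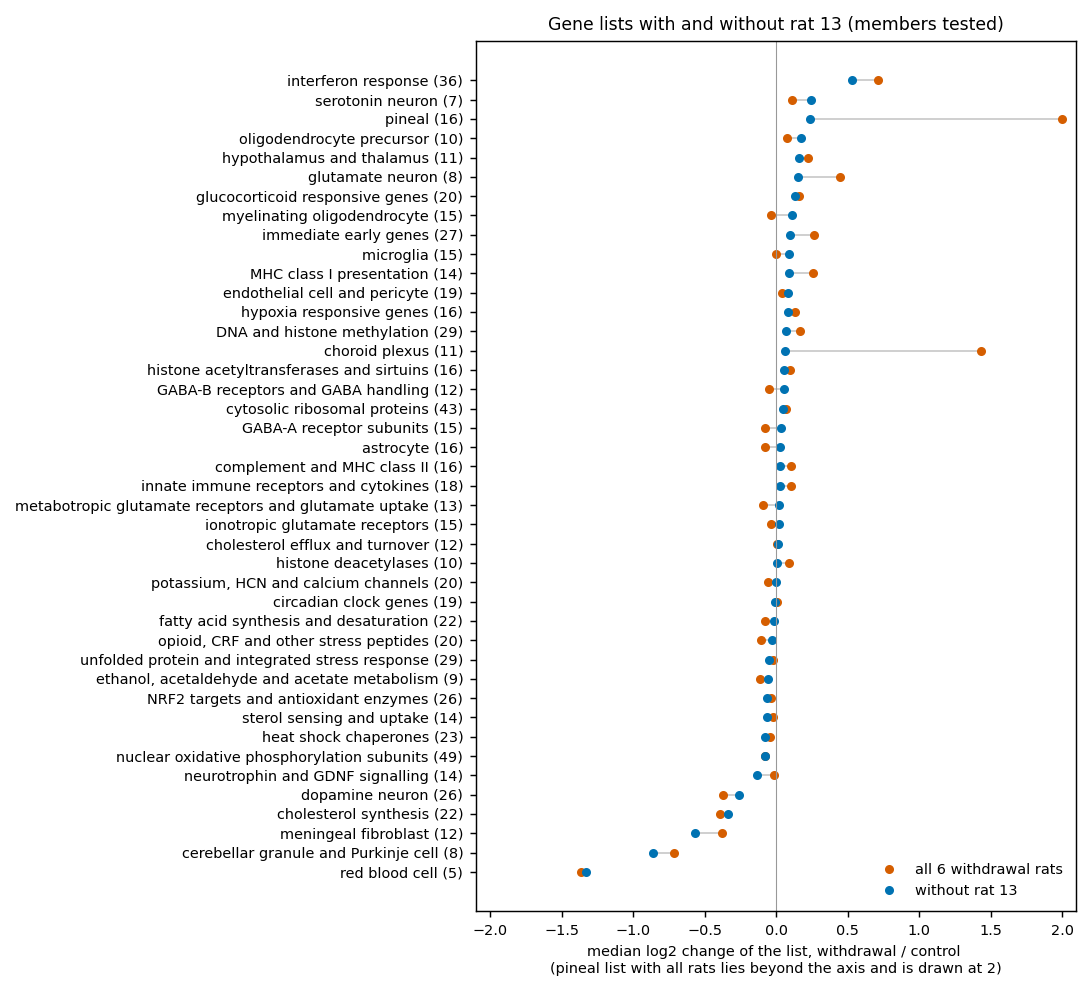
Median log2 difference in withdrawal against control of each gene list with at least 5 tested members, with all rats (orange) and without rat 13 (blue); the number tested follows each name, and the pineal list with all rats, beyond the axis, is drawn at 2. Pineal and choroid plexus lists move toward 0 without rat 13 (to 0.24 and 0.06), the pineal list staying above it. Cholesterol synthesis (-0.39 and -0.34), red blood cell and interferon response lists keep their side of 0.

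Genes of the pineal gland and choroid plexus, which neighbour the midbrain, stood out in rat 13. Tph1, the pineal tryptophan hydroxylase, was at 14990.0 CPM there, and the phototransduction genes Pde6g and Gnat2 at 2945 and 2329 CPM. In rats 14 to 18 Tph1 was at 1.21 to 7.07 CPM against 0.607 to 3.75 in controls, a difference of 1.85 ± 0.62 without rat 13. Withdrawal and ethanol rats then differed by 0.39 ± 0.60. The pineal marker Rbp3, at 1064 CPM in rat 13, was near the floor at 0.235 to 0.383 in rats 14 to 16. It was at 0.142 to 0.469 in ethanol rats 9 to 12, which share the index of rat 13, and at 0 to 0.236 in controls. Rats 17 and 18 were at 0.0346 and 0.202. The part of the index in the value of Tph1 was not tested. Ttr, the transthyretin of the choroid plexus, was at 319 CPM in rat 13 and at most 9.41 in rats 14 to 18. The share of rat 13's RNA that came from outside the VTA was not estimated.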

How the data were processed

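Stranded mRNA libraries, 1 per rat, were sequenced in paired-end runs. The deposited values are counts of fragments per gene, made with STAR 2.5.2a on Rnor_6.0 per the submitters' processing notes and featureCounts 1.5.0 per the file headers, whose command counts pairs by strand over exons and sets no option for multi-mapping pairs. Symbols from a RefSeq table (names only) matched 29322 of 38445 genes. Genes without a symbol took 1.21 to 1.86% of counts. Depth is given in the report; with no molecular identifiers, the floor of 3 counts covers counting error only.

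Counts of all 18 libraries were filtered with filterByExpr, scaled by TMM and tested with edgeR 4.0.16 (quasi-likelihood, R 4.3.3, two-sided), giving a common biological coefficient of variation of 0.270. Adjusted p-values are Benjamini-Hochberg over all tested genes. SE is the size of the log2 difference over the square root of F. Differences are withdrawal over control unless stated. On simulated counts for withdrawal against control (17492 genes, 200 changed), the share recovered was 35.8% for log2 changes of 0.5, 73.1% for 1 and 89.4% for 2, with 3 false among 135 calls. Each gene was drawn independently of the others, with no library of mixed tissue. The shares therefore check the code and need not hold for the real libraries. Libraries came from separate animals, and no pair within a group had a chi-square per degree of freedom under 11.6.

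Named genes have a mean of at least 1 CPM over the 12 libraries and are the 12 rises and 12 falls with the lowest p, the 8 of each without rat 13, up to 4 members of each list with the lowest p, and a fixed set that includes Bdnf, Crh, Fos, Hdac2, Insig1, Irf7, Npy, Slc6a3, Srebf2, Th and Tph1. Members of the cholesterol synthesis list are described beside the rule. Some genes are not reported here, and only some of the rule's genes are described. Angpt2 was named after its values were seen. Members and the 44 lists were chosen with earlier results of these data known. Alternatives were RLE factors, no or a stricter filter, robust fitting, DESeq2 1.42.0, limma-voom (limma 3.58.1) with and without quality weights, the 12 libraries alone, the index as a term, each rat left out, rats 5, 13 and 17 left out together, and an adjusted p of 0.10. The 12-library, DESeq2 and limma-voom fits without rat 13 were added after seeing the data. Promoter sequences are from RefSeq (GRCr8).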

Additional observations from a re-analysis of the deposited data

Results flagged for a closer look

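In each group of 6 rats, a rat was singled out where its gap to the nearest other rat exceeded Dixon's 95% critical value, as a share of the range. Chance does this for about 1 in 20 groups. Among the named genes, 43 of 200 gene and group pairs had such a rat, and 29 of the 43 were withdrawal rat 13. All values are CPM.

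Rat 13 stood above the 5 other withdrawal rats for Tph1 at 14990.0, Pde6g at 2945, Oasl at 32.7, Hspb1 at 85.8, Ep300 at 106, Hdac2 at 139, Kmt2c at 98.7, Gch1 at 407, Penk at 282, Fos at 27.3, Gnat2 at 2329, Ttr at 319, Tm7sf2 at 83.2 and Pmvk at 85.2. It stood below them for Efhd1 at 39.7, Tyro3 at 83.4, Spred1 at 74.5, Fgfr2 at 115, Acat2l1 at 3.89, Idi1 at 36.2, Fads6 at 30.3, Srebf2 at 98.8, Stard4 at 14.3, Myrf at 115, Fasn at 258, Sqle at 53.0, Erg28 at 24.8, Cyp51 at 113 and Sc5d at 157. The high set holds pineal and choroid plexus markers beside genes such as Hdac2, Penk and Oasl, and the low set holds sterol, oligodendrocyte and other genes.

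Withdrawal rat 18 was apart for Dusp6 at 19.9. Control rat 5, the rat with hindbrain Hox genes, was apart for 8 genes: high for Tph1 at 3.75, Bdnf at 35.0, Fos at 30.3 and Acss2 at 173, and low for Fdps at 109, Insig1 at 155, Fdft1 at 139 and Sc5d at 304. For Fdps, Insig1 and Fdft1 that value brings a control rat to the level of the withdrawal rats. Control rat 3 was high for Pla1a at 4.93, Ttr at 10.3 and Angpt2 at 8.81, control rat 6 for Fasn at 562, and control rat 1 was low for Ndrg1 at 279.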

How the results depend on the processing

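No paired analysis was possible because every rat has a number of its own. For withdrawal against control edgeR called no gene with all rats, and 0 to 2 with each rat left out: 2 without withdrawal rat 13 (Idi1 and Capn6), 1 without control rat 3 (Angpt2, log2 1.57), and 1 each without ethanol rat 10 (LOC108352949) or 11 (Acat2l1). DESeq2 called 47 genes (113 without rat 13), limma-voom with quality weights 43, with a weight of 0.0632 for rat 13, limma-voom without rat 13 called 2, and the 12 libraries without rat 13 gave 6; cholesterol synthesis held 7, 10, 9, 1 and 2 of these calls. For withdrawal against ethanol DESeq2 called 294 genes and edgeR 0 to 24 with each rat left out: 22 without rat 13, 24 without rat 18, 12 without ethanol rat 11, 1 without rat 14 or 16 and 2 without rat 15. Of 2800 log2 changes recomputed for 100 genes, 28 in 11 genes changed sign. Without rats 5, 13 and 17 these were Hdac2 (-0.0075), Gch1 (-0.10), Bdnf (0.22), Tm7sf2 (-0.55), Lbr (-0.0515) and Pmvk (-0.17). With quality weights they were Gch1 (-0.19), Bdnf (0.0772), Tm7sf2 (-0.53), Lbr (-0.037) and Pmvk (-0.17), and in limma-voom Tm7sf2 (-0.0772) and Pmvk (-0.0094). With the index they were Bdnf (0.0876), Fos (-0.66), Acss2 (0.14), Mvk (0.0422), Dhcr7 (0.0843), Msmo1 (0.0412) and Lbr (-0.0161). With each rat left out, Gch1 ranged from -0.10 (without rat 13) to 2.68, Fos from -0.0629 (rat 13) to 0.87, Tm7sf2 from -0.59 (rat 13) to 0.70, Lbr from -0.0145 (rat 13) to 0.0377, Pmvk from -0.15 (rat 13; also below 0 without control rat 1 or 5) to 0.0657, and Bdnf from -0.56 to 0.0913 (control rat 5). The cause was not tested. The cholesterol synthesis median lay between -0.47 (without rat 14) and -0.24 (index as a term). A gene with no count could still lie at up to about 0.1 CPM (3 counts), and index and group cannot be told apart.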
